A study of Mus musculus with 7 samples.

Results

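DNA replication and S-phase genes were taken as 47 listed genes whose products license, fire and copy replication origins, supply nucleotides, reassemble chromatin or drive entry into S phase. A gene was measured by the probe set that carried its symbol alone and had the highest mean over the 7 arrays. This gave 46 measured genes of 18193 genes with such a probe set. Chaf1a is not analysed here. The samples were mouse macrophages grown from bone marrow, with 1 Affymetrix array for each of 7 conditions. Cells were left without ligand for 24 h (naive) or given MDP or Pam3CSK4 for that time (pretreated), and then spent 3 h without ligand or with MDP or Pam3CSK4. Naive cells thus gave an unstimulated array, an MDP array and a Pam3CSK4 array. Pretreated cells gave arrays for all 4 orders of the ligands, named by the pretreatment and then the second ligand (MDP before Pam3CSK4, for example). The labels print the doses as 10 mg/ml for MDP and 1 mg/ml for Pam3CSK4, and the mouse strain, sex and age are not given in the sources used here. MDP is muramyl dipeptide, a fragment of bacterial cell wall sensed by NOD2, and Pam3CSK4 is a synthetic lipopeptide sensed by Toll-like receptors 2 and 1. No pretreated culture went without a second ligand, so a lasting effect of the pretreatment and a response to the second ligand cannot be told apart in those arrays. The study asked which genes each ligand induced and which of those responded less in pretreated cells, and the replication genes were not its stated subject.

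Before S phase, the origin recognition complex, Cdc6 and Cdt1 load the MCM2-7 ring onto origins. Cdc45 and GINS then turn the ring into an active helicase, and polymerases working with primase, the PCNA clamp and its loader copy the strands. Most of these genes are classic targets of the E2F transcription factors, which are released when cyclin-dependent kinases inactivate the retinoblastoma protein. Bone marrow-derived macrophages divide in response to the growth factor M-CSF, and exposure to Toll-like receptor ligands is known to stop that division.

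All values are log2 expression values per probe set, and all differences are between single arrays. There is no replicate of any condition, so no test, p-value or error is given, and precision is limited by having a single array a condition. As a scale, the differences over all genes had a robust SD of 0.11 between the closest pair of arrays, which were the 2 Pam3CSK4-pretreated arrays, and of 0.26 between the farthest pair. A value below its array's median, which lay between 5.48 and 5.55, was taken as not separable from background, and a difference that reaches below it is given as a bound. Above that median on all 7 arrays were 42 of the 46 genes, with Cdc6, Ccne2 and Ung above it on some arrays and Tyms on none. In RNA from a whole culture, fewer cells in S phase and less of a transcript per cell cannot be told apart.

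The measured macrophage markers, 9 of 10 listed, were above the array median on every array, with a summed level between 16.68 and 16.87 on the log2 scale. Other markers differed by pretreatment. The 6 B cell markers summed to 10.71 to 10.82 on the 3 naive arrays and 9.31 to 9.54 on the 4 pretreated arrays, with 3 of 6 above the array median on 6 arrays and 4 on MDP before Pam3CSK4. The fall was that of Ighm, at 10.42 to 10.50 on naive and 7.73 to 8.54 on pretreated arrays. Cd79b went the other way, at 7.16 to 7.58 on naive arrays, 7.66 after MDP and 7.97 to 8.16 after Pam3CSK4, and Ms4a1 and Ebf1 were below the array median throughout. The 7 neutrophil markers summed to 12.38 to 12.51 on naive arrays, 12.72 to 12.84 after MDP and 13.07 to 13.14 after Pam3CSK4, with 6 above the median and Mpo below it throughout. After Pam3CSK4 pretreatment S100a8 (12.15 and 12.13, against 11.03 in unstimulated cells) and S100a9 (11.46 and 11.37, against 10.54) were higher, while Ltf (6.88 and 6.41, against 7.57) and Camp (7.53 and 7.45, against 7.71) were lower. The 6 stromal markers summed to 8.88 to 9.06 after Pam3CSK4 and 8.10 to 8.20 elsewhere, with 2 above the median and Col1a1 below it throughout. This rested on Dcn, at 8.34 and 8.03 after Pam3CSK4 against 6.28 to 6.69 elsewhere, as Col1a2 ran from 6.18 to 6.51. The sums of dendritic cell markers (8.70 to 9.18), T and NK cell markers (8.61 to 8.73), mast and erythroid markers (7.26 to 7.47) and progenitor markers (7.12 to 7.33) varied less. The part of these markers in the results was not tested. On the Pam3CSK4 before Pam3CSK4 array the 3 control probe sets for 18S ribosomal RNA stood at a median of 1.70 over unstimulated, against at most 0.48 on the other arrays.

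Replication genes were lowest after 3 h of Pam3CSK4 in naive cells and highest after a second exposure to MDP. Of the 46 genes, 38 had their lowest value on the naive Pam3CSK4 array and 32 had their highest value on the MDP before MDP array, with 9 highest on the Pam3CSK4 before Pam3CSK4 array. The median level of the genes was 8.11 in naive unstimulated cells, 7.92 with MDP and 7.49 with Pam3CSK4. After MDP pretreatment it was 8.33 with MDP and 7.93 with Pam3CSK4, and after Pam3CSK4 pretreatment 8.06 and 8.11. Over all genes the corresponding array medians lay between 6.76 and 6.82. Members ordered unstimulated above MDP above Pam3CSK4 on the naive arrays numbered 38 of 46. For this order and for the lowest and highest arrays, the share of all genes was not counted. The all-gene share is also not given for the counts of higher or lower members that follow. Over all genes, median differences from unstimulated cells or from naive cells given the same ligand lay between -0.014 and 0.009.

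**Figure D1:**
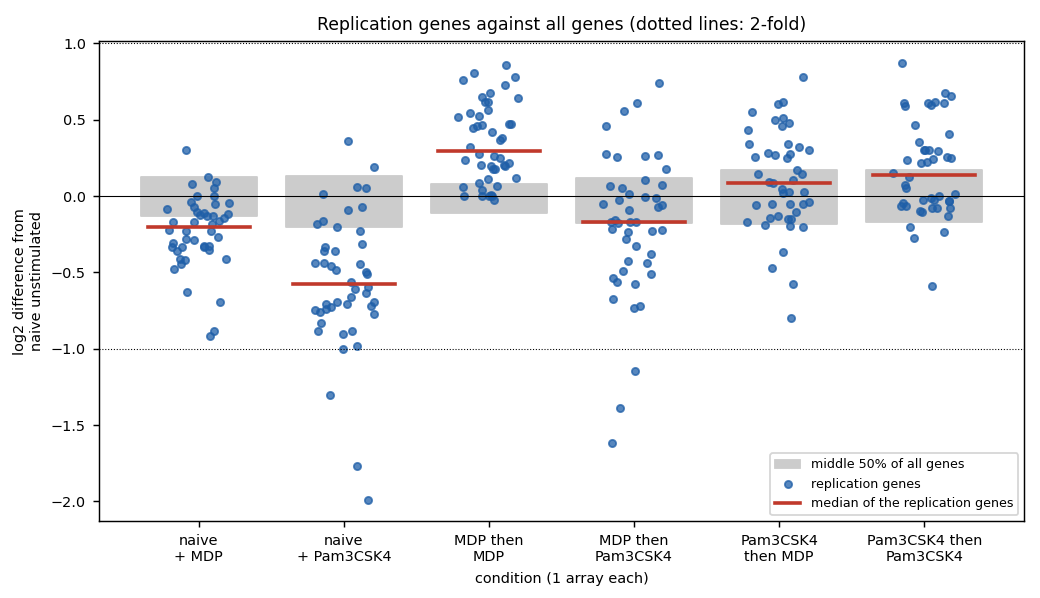
Each point is the log2 difference of 1 replication gene from the naive unstimulated array (vertical axis) on 1 of 6 arrays (horizontal axis), the red line is the median of the 46 genes, the grey band holds the middle 50% of all genes, and dotted lines mark 2-fold. The red line lies at -0.58 in naive cells with Pam3CSK4 and at 0.30 in cells given MDP before MDP.

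In naive cells MDP left the genes slightly lower, with a median difference from unstimulated of -0.20 and 39 of 46 below 0. No gene was 2-fold lower, against 0.17% of all genes, and none 2-fold higher, against 0.583%. At 1.5-fold 4 genes were lower, against 1.23% of all genes. They were the cyclin Ccne2 (-0.91), the licensing factor Cdc6 (-0.88), the polymerase epsilon subunit Pole2 (-0.63) and the uracil glycosylase Ung. Ung was below the array median with MDP and barely above it in unstimulated cells, so no drop can be read from it, and 3 genes remain without it.

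Pam3CSK4 gave the larger drop in naive cells, with a median of -0.58 and 41 of 46 genes below the unstimulated array. Cdc6, Ccne2 and Cdt1 were at least 2-fold lower, which is 3 of 46 members against 1.95% of all genes, and 0 were 2-fold higher, against 2.27%. Another member, Rrm2, lay just short of 2-fold at -1.00, and Dut stood at -0.98. At 1.5-fold 23 of 46 genes were lower (22 without Ung, for the same reason), against 6.07% of all genes, and at 3-fold Ccne2 and, as deposited, Cdc6, against 0.605%. The 5 genes not below unstimulated were Pola2, Pole, Orc1, Tyms and Pold2.

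After MDP pretreatment the levels differed by second ligand. With MDP as the second ligand, 42 of 46 genes were above naive unstimulated cells, with a median of 0.30, though 0 were 2-fold higher (0.39% of all genes) and 0 were 2-fold lower (0.0385%). At 1.5-fold 10 genes were higher, against 1.56% of all genes, and these were Mcm10, Rrm2, Prim1, Uhrf1, Rfc3, Mcm5, Cdc45, Rfc4, Ccne2 and Cdc6. Other probe sets above the array median fell short of 1.5-fold for Rrm2 (0.57 and 0.55), Prim1 (0.49), Rfc3 (0.35) and Mcm5 (0.56). The same held for Cdc45 (0.17) and Rfc4 (0.52), while Uhrf1 stayed past it (0.61). With Pam3CSK4 as the second ligand the median was -0.17 and 32 of 46 genes were below unstimulated. Cdc6, Cdt1 and Ccne2 were again 2-fold lower (3 of 46, against 1.8% of all genes), 0 were 2-fold higher (3.03%), and 6 were 1.5-fold lower (5.32%), which adds Mcm2, Pole2 and, only as deposited, Ung. Cdc6 was the 1 gene 3-fold lower (0.484%), through a value barely above the array median. Pola2 and Rfc3 were 1.5-fold higher, and 2 of 46 is no more than the all-gene share of 5.41%. With its second probe set Rfc3 stood at 0.20.

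Set against naive cells given the same ligand, the MDP-pretreated cells held more of these transcripts. In cells given MDP the median was 0.59 and 45 of 46 genes were higher, Orc1 being equal on both arrays. Ccne2, Cdc6, Rrm2, Mcm5 and Prim1 were at least 2-fold higher, which is 5 of 46 against 0.385% of all genes, and 0 were 2-fold lower (0.291%). At 1.5-fold 23 were higher (22 without Ung), against 2.26% of all genes, and at 3-fold 0, against 0.044%. The calls of Mcm5, Prim1 and Rrm2 lie close to the line and end under cyclic loess normalization, at 0.98, 0.99 and 1.00. In cells given Pam3CSK4 the median was 0.39, with 40 of 46 genes higher. None was 2-fold higher (0.297% of all genes) or lower (0.022%), and 10 were 1.5-fold higher (1.76%), or 9 with Ccne2 at its bound.

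After Pam3CSK4 pretreatment the genes had medians slightly above the unstimulated level with either second ligand. The median was 0.09 with MDP, where 0 were 2-fold lower (2.59% of all genes) and 0 were 2-fold higher (2.78%). With Pam3CSK4 it was 0.14, where again 0 were 2-fold lower (2.29%) and 0 were 2-fold higher (2.66%). With arrays centred on housekeeping genes these medians were 0.20 and 0.25. At 1.5-fold with MDP 3 of 46 genes (Rfc3, Cdc45 and Pola2) were higher, close to the all-gene share of 5.28%, and 1, Cdt1, was lower (7.41%). With Pam3CSK4 there were 9 higher (5.16%) and 1 lower (6.58%), again Cdt1. Within 0.3 of each other on these arrays were 44 of the 46 genes. Cdt1 was the gene furthest below unstimulated, at -0.80 and -0.59, and Rfc3 the furthest above, at 0.78 and 0.87. A second probe set of Rfc3, also above the array median on all arrays, gave only 0.30 and 0.29, short of 1.5-fold.

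Against naive cells given Pam3CSK4, cells given it a second time had a median of 0.73, with 43 of 46 genes higher. The 2-fold higher genes were Ccne2, Cdc6, Rrm2, Ccne1, Chaf1b, Prim1 and Gins1, which is 7 of 46 against 2.41% of all genes, and 0 were 2-fold lower (2.3%). At 1.5-fold 30 were higher, against 6.77% of all genes, and at 3-fold 3 (Ccne2, Rrm2 and, only as deposited, Cdc6), against 0.846%. This comparison shares the naive Pam3CSK4 array with the comparison of that array with unstimulated cells, so the values of both move with that array. Calls that end when 32 is added to the linear values are Gins1 (0.74), Chaf1b (0.95) and Prim1 (0.99). Against naive cells given MDP, Pam3CSK4-pretreated cells given MDP had a median of 0.36, and 0 were 2-fold lower (1.71% of all genes). Ccne2 was the 1 gene 2-fold higher, at 1.23, or 0.97 with 32 added. This 1 of 46 is about the all-gene share of 2.14%. Genes 1.5-fold higher numbered 9, against 4.95% of all genes, and 3-fold higher 0, against 0.934%.

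**Figure D2:**
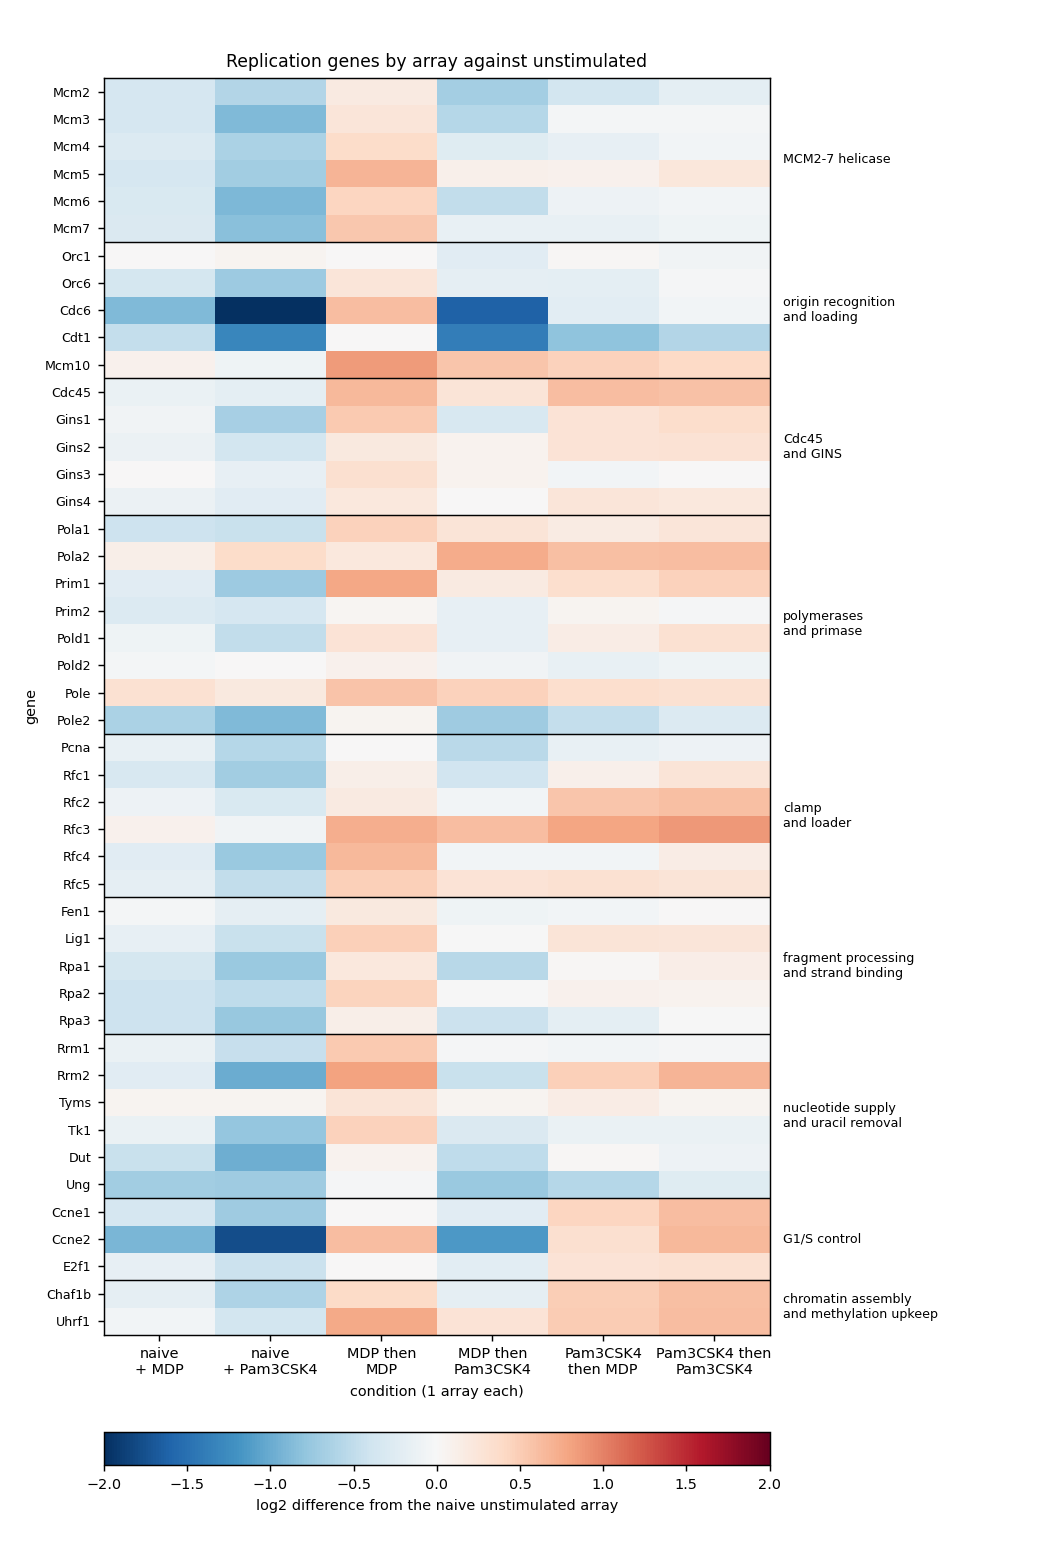
Rows are the 46 replication genes grouped by role, columns are 6 arrays, and colour is the log2 difference from the naive unstimulated array, with blue lower and red higher. The naive Pam3CSK4 column is blue in most rows, with Cdc6 at -1.99 and Ccne2 at -1.77 as deposited (-1.58 and -1.62 or lower as bounds), and the MDP before MDP column is red in most rows, deepest at Mcm10 (0.86).

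Each gene's levels are given in the order unstimulated, MDP and Pam3CSK4 in naive cells, then MDP and Pam3CSK4 as the second ligand after each pretreatment. Among the licensing factors Cdc6 and Cdt1 had the largest ranges. Cdc6, the ATPase that recruits the MCM ring to the origin recognition complex, was at 7.12, 6.23 and 5.13 in naive cells, 7.73 and 5.50 after MDP, and 6.91 and 7.06 after Pam3CSK4. Its naive Pam3CSK4 value was below the array median of 5.54, so the difference from unstimulated is -1.58 or lower (at least 2.98-fold), against -1.99 as deposited. The MDP before Pam3CSK4 value was 3.07-fold lower than unstimulated, and lay barely above its array median (5.499 against 5.495). Both arrays of cells given Pam3CSK4 without Pam3CSK4 pretreatment were thus low, and the arrays after Pam3CSK4 pretreatment stood at -0.20 and -0.06 from unstimulated.

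Cdt1, which with Cdc6 loads the MCM ring and is destroyed once S phase starts, was at 12.37, 11.89 and 11.07 in naive cells, 12.38 and 10.99 after MDP, and 11.57 and 11.79 after Pam3CSK4. The same arrays as for Cdc6 were low, at 2.47-fold and 2.61-fold below unstimulated. A second probe set gave -1.39 and -1.37 for these differences. Averaging all 3 probe sets of Cdt1, 1 of which was below the array median on every array, gave -0.94 and -0.93, short of 2-fold. Orc6, a subunit of the origin recognition complex, was at 7.91, 7.55 and 7.19 in naive cells, 8.15 and 7.74 after MDP, and 7.72 and 7.88 after Pam3CSK4. Orc1, the complex's large ATPase subunit, ran only from 6.29 to 6.57 over the 7 arrays. Mcm10, a scaffold that joins the active helicase to primase, did not follow Cdc6. It was at 7.11 to 7.29 on the naive arrays and 7.61 to 8.06 on the pretreated arrays, with no overlap. For Mcm10 and the members below with no such overlap, the share of all genes that separate this way was not counted. The separation therefore cannot be called particular to these members.

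**Figure D3:**
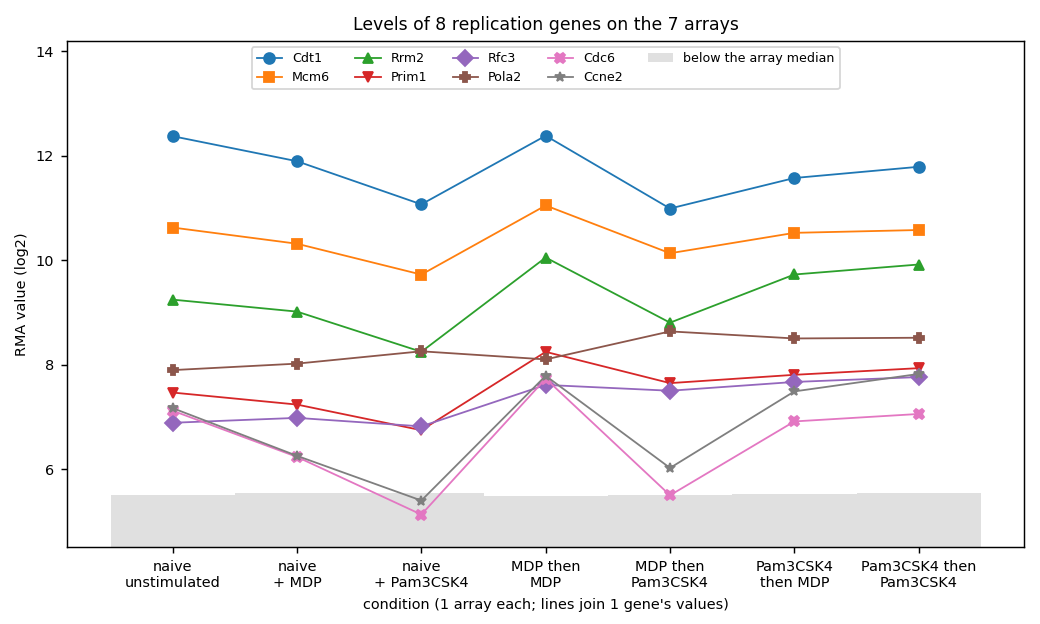
Log2 levels (vertical axis) of 8 replication genes on the 7 arrays (horizontal axis, 1 array each), with grey marking values below the array median. Cdc6 and Ccne2 enter or touch the grey zone with Pam3CSK4 in naive cells, at 5.13 and 5.40, while Pola2 is higher there than in unstimulated cells, at 8.26 against 7.89.

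Promoter sequence was set beside these differences because most of the genes are known as E2F targets. RefSeq windows from 250 bases before to 50 bases after the transcription start, build GRCm38.p6, were matched to 38 of the 46 genes. Ccne2, Gins1, Gins2, Gins4, Mcm4, Pole, Prim2 and Rfc2 had no entry. The letters TTTGGCGC, TTTCGCGC, TTTCCCGC and TTTGCCGC, searched on both strands with overlapping matches counted, were used as an E2F-type motif. They were found in 14 of the 38 genes (36.8%), against 3.81% of the 14452 genes with a window and a value, and in 2.26% of all windows of this length. The 14 genes were Cdc6, Cdt1, Gins3, Lig1, Mcm3, Mcm5, Mcm6, Mcm7, Orc1, Pola1, Pold1, Pole2, Rfc3 and Uhrf1. A match describes letters and is not a shown binding site. For genes with a match the median difference of naive Pam3CSK4 from unstimulated was -0.60 (n = 14), and for genes without one it was -0.60 (n = 24). With MDP in naive cells these medians were -0.30 and -0.20, and in MDP before MDP 0.44 and 0.23, and none of these differences was tested. Over all genes with a window and a value, naive Pam3CSK4 against unstimulated had medians of -0.11 with a match (n = 550) and -0.003 without (n = 13902). With MDP in naive cells these all-gene medians were -0.07 and 0, and in MDP before MDP -0.014 and -0.013. The letters CCAAT were present in 57.9% of the 38 genes and 42.0% of all genes with a window and a value. The letters TTTGAA or TTCGAA, a motif of late cell cycle genes, were present in 18.4% and 17.5%.

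The 250 bases before the start are shown for 5 genes, 5′ to 3′ on the gene's strand, with E2F-type matches in capitals. They hold a licensing gene 2-fold lower with Pam3CSK4 in naive cells and a pair of helicase genes in which matches on both strands overlap. The others are a gene with a wide range and no match and Pola2, a member higher with Pam3CSK4 in naive cells. Positions are chr11:98907901-98908150 on the plus strand for Cdc6, chr1:128359706-128359955 on the minus strand for Mcm6, chr8:75109259-75109508 on the plus strand for Mcm5, chr12:24708004-24708253 on the plus strand for Rrm2 and chr19:5964207-5964456 on the minus strand for Pola2.
Cdc6: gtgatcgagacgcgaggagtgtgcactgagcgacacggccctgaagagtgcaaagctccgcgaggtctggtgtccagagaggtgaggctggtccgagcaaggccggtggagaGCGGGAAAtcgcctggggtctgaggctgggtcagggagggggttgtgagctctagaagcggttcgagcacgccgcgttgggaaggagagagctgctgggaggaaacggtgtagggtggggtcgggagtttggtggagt
Mcm6: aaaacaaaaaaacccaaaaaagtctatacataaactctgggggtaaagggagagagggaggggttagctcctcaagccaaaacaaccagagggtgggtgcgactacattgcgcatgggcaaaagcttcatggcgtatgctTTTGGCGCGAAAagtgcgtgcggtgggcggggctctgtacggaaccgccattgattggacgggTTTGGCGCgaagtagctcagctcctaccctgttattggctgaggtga
Mcm5: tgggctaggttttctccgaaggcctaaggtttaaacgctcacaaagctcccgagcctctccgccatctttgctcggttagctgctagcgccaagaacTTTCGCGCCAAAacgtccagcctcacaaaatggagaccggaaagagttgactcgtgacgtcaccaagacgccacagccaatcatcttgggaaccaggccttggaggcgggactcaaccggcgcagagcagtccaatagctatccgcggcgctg
Rrm2: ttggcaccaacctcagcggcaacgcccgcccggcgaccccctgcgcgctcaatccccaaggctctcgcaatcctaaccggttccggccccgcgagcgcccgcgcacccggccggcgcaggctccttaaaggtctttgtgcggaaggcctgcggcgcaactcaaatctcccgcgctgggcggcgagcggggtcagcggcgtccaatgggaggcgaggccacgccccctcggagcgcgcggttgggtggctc
Pola2: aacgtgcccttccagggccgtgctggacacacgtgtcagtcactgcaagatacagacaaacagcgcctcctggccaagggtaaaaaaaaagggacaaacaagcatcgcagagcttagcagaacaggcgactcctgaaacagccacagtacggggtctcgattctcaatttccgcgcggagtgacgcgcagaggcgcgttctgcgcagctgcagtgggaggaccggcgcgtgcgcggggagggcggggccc
Counted from the start site, the match of Cdc6 begins at -138. Mcm6 holds 3 matches, which begin at -110, -106 and -47, and Mcm5 holds 2, which begin at -153 and -149. No match lies in the windows of Rrm2, which stood at -1.00 in naive cells with Pam3CSK4, or of Pola2, which stood at 0.36. In the window of Cdt1 the match begins 32 bases after the start.

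The 6 genes of the MCM2-7 helicase, the ring that unwinds DNA ahead of the fork, were close on the naive arrays with the chosen probe sets. Their differences from unstimulated ran from -0.34 to -0.27 with MDP and from -0.90 to -0.59 with Pam3CSK4 in naive cells, and from 0.18 to 0.68 in MDP before MDP. Other probe sets above the array median spread wider in naive cells. They ran from -0.81 (Mcm2) to 0.08 (Mcm3) with MDP and from -1.28 (Mcm2) to 0 (Mcm3) with Pam3CSK4. Mcm6 was at 10.62, 10.31 and 9.72 in naive cells, 11.05 and 10.13 after MDP, and 10.52 and 10.58 after Pam3CSK4. Mcm3 was at 9.14, 8.80 and 8.26 in naive cells, 9.39 and 8.57 after MDP, and 9.10 and 9.11 after Pam3CSK4. In both genes the arrays given Pam3CSK4 after no pretreatment or after MDP were the lowest 2, and MDP before MDP was the highest.

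Mcm5 was at 9.52, 9.18 and 8.83 in naive cells, 10.20 and 9.62 after MDP, and 9.61 and 9.74 after Pam3CSK4. Mcm7 was at 9.98, 9.70 and 9.15 in naive cells, 10.53 and 9.83 after MDP, and 9.84 and 9.91 after Pam3CSK4. Mcm4 was at 9.14, 8.87 and 8.50 in naive cells, 9.50 and 8.90 after MDP, and 8.97 and 9.08 after Pam3CSK4. All 3 were lowest on the naive Pam3CSK4 array, and Mcm5 was above unstimulated on all 4 pretreated arrays. The Mcm5 difference of MDP before MDP from naive MDP, 2.02-fold, was 0.78 with the mean of its probe sets. Mcm2 ran from 8.65 on the MDP before Pam3CSK4 array to 9.50 on the MDP before MDP array. Its second probe set gave a larger drop with Pam3CSK4 in naive cells, -1.28 against -0.59.

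Cdc45 and the GINS subunits, which complete the active helicase, differed from unstimulated by -0.66 to -0.16 with Pam3CSK4 in naive cells and by -0.05 to 0.61 after Pam3CSK4 pretreatment. Gins1 was at 6.63, 6.55 and 5.97 in naive cells, 7.15 and 6.30 after MDP, and 6.90 and 6.98 after Pam3CSK4. Its difference between second and first Pam3CSK4 exposure was 2.02-fold. Cdc45 was at 6.20 or lower on the naive arrays and 6.46 to 6.85 on the pretreated arrays, without overlap. A second probe set of Cdc45 did overlap, at 5.76 to 6.08 on naive and 5.82 to 5.98 on pretreated arrays. Between second and first Pam3CSK4 exposure it differed by 0.06, where the first probe set differed by 0.79. Gins2, Gins3 and Gins4 had ranges of 0.66, 0.49 and 0.48, and Gins2 and Gins4 were highest on the Pam3CSK4-pretreated arrays.

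Of the 8 polymerase and primase genes Prim1 had the largest range, while the other primase subunit, Prim2, had a range of 0.38. Prim1, the catalytic primase subunit that lays down RNA primers, was at 7.47, 7.24 and 6.74 in naive cells, 8.24 and 7.65 after MDP, and 7.80 and 7.93 after Pam3CSK4. With this probe set all 4 pretreated arrays were above all 3 naive arrays. With the other Prim1 probe set, unstimulated cells (6.92) were above MDP before Pam3CSK4 and Pam3CSK4 before MDP (both 6.90). The chosen probe set differed 2.01-fold between second and first MDP exposure and 2.28-fold between second and first Pam3CSK4 exposure. The other probe set, also above the array median, gave 1.04 and 1.00 on the log2 scale. Pola1, the catalytic subunit of polymerase alpha, also had its pretreated arrays, at 7.72 to 8.01, above its naive arrays, at 7.10 to 7.55.

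On the naive arrays Pola2, the regulatory subunit of the same polymerase, was higher with either ligand, where most members were lower. It was at 7.89, 8.02 and 8.26 in naive cells, 8.10 and 8.64 after MDP, and 8.50 and 8.51 after Pam3CSK4. The lowest value was that of unstimulated cells and the highest that of MDP before Pam3CSK4. Against naive cells given the same ligand Pola2 was higher, as most members were. The differences were 0.08 and 0.38 after MDP and 0.48 and 0.26 after Pam3CSK4. Pole2, a subunit of polymerase epsilon, was highest in MDP before MDP and unstimulated cells, at 8.26 and 8.20, and lowest at 7.32 with Pam3CSK4 in naive cells. Pold1 ran from 6.93 to 7.73, Prim2 from 7.21 to 7.60, Pole, the catalytic subunit of polymerase epsilon, from 5.68 to 6.24, and Pold2 from 8.04 to 8.28, the smallest range of all members. Like Pola2, Pole was lowest in unstimulated cells and higher with MDP (5.98) and Pam3CSK4 (5.87) in naive cells.

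Pcna, the sliding clamp that holds polymerases on DNA, was at 13.86, 13.72 and 13.30 in naive cells, 13.86 and 13.32 after MDP, and 13.72 and 13.76 after Pam3CSK4, so the arrays low for Cdc6 were low for Pcna, at -0.56 and -0.53 from unstimulated. The clamp loader subunits split. Rfc4 was at 7.69, 7.47 and 6.94 in naive cells, 8.33 and 7.64 after MDP, and 7.64 and 7.84 after Pam3CSK4. Rfc5 was at 8.03, 7.85 and 7.55 in naive cells, 8.51 and 8.31 after MDP, and 8.33 and 8.29 after Pam3CSK4. Rfc5 and Rfc3 were higher on every pretreated array than on any naive array, with Rfc3 at 6.82 to 6.98 on naive and 7.50 to 7.76 on pretreated arrays. Rfc1 and Rfc2 were highest in Pam3CSK4 before Pam3CSK4, at 8.56 and 10.29, and lowest with Pam3CSK4 in naive cells, at 7.62 and 9.37.

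The single-strand binding subunits Rpa1, Rpa2 and Rpa3, which coat unwound DNA, were all lowest in naive Pam3CSK4 cells, with differences from unstimulated of -0.74, -0.51 and -0.76. All 3 were highest in MDP before MDP, Rpa1 at 11.48, Rpa2 at 8.33 and Rpa3 at 8.69. Lig1, the ligase that joins Okazaki fragments, ran from 8.19 to 9.10 between the same arrays. Fen1, the nuclease that trims fragment flaps, ran from 11.05 to 11.43, and its second probe set differed from unstimulated by -0.61 in naive Pam3CSK4 cells, where the first differed by -0.18.

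Among genes of nucleotide supply the 2 subunits of ribonucleotide reductase, which makes deoxyribonucleotides, differed in range. Rrm2, the subunit limited to S phase, was at 9.24, 9.01 and 8.25 in naive cells, 10.05 and 8.80 after MDP, and 9.73 and 9.92 after Pam3CSK4. MDP before MDP and both Pam3CSK4-pretreated arrays were above unstimulated, and the naive Pam3CSK4 array was the lowest. Between second and first Pam3CSK4 exposure Rrm2 differed 3.18-fold, with 3 probe sets at 1.30, 1.67 and 1.89. Between second and first MDP exposure it differed 2.05-fold, with the probe sets at 0.80, 1.04 and 0.88, so only the chosen probe set, of a type that can match other transcripts, passed 2-fold there. Rrm1, the large subunit, was at 9.73, 9.61 and 9.28 in naive cells, 10.26 and 9.71 after MDP, and 9.68 and 9.71 after Pam3CSK4.

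Tk1, the thymidine salvage kinase, was at 8.21, 8.08 and 7.44 in naive cells, 8.67 and 7.93 after MDP, and 8.08 and 8.09 after Pam3CSK4. Dut, which removes dUTP, was at 7.29, 6.85 and 6.31 in naive cells, 7.36 and 6.78 after MDP, and 7.32 and 7.19 after Pam3CSK4. Tk1 and Dut were lowest in naive Pam3CSK4 cells and highest in MDP before MDP. Ung was above the array median on 2 arrays only, and Tyms, thymidylate synthase, was listed at 3.97 to 4.24, below the array median on all arrays with each of its 4 probe sets, so no fold is given for it.

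The G1/S cyclins separated from each other. Ccne2, a cyclin E that activates Cdk2 at S-phase entry, was at 7.17, 6.25 and 5.40 in naive cells, 7.79 and 6.02 after MDP, and 7.49 and 7.82 after Pam3CSK4. The naive Pam3CSK4 array was below its median, which bounds the drop from unstimulated at 3.08-fold or more, and makes second against first Pam3CSK4 exposure at least 4.85-fold. With 32 added to the linear values the difference of MDP before Pam3CSK4 from unstimulated was -0.86 in place of -1.15. Ccne1, the other cyclin E, was at 8.36, 8.03 and 7.65 in naive cells, 8.36 and 8.13 after MDP, and 8.79 and 8.97 after Pam3CSK4. Its 2 highest arrays were those after Pam3CSK4 pretreatment, 2.49-fold over the first exposure in the case of Pam3CSK4, and MDP before MDP was at the unstimulated level. E2f1, the activating E2F factor, had the same order in its highest arrays, both at 8.97 or above, and was lowest in naive Pam3CSK4 cells, at 8.27.

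In the chromatin group Chaf1b, a subunit of the histone chaperone CAF-1, was at 6.93, 6.76 and 6.32 in naive cells, 7.31 and 6.76 after MDP, and 7.43 and 7.53 after Pam3CSK4. Its difference between second and first Pam3CSK4 exposure, 2.31-fold, was 0.67 on the log2 scale when averaged with a second probe set that was below the array median. Uhrf1, which guides maintenance methylation to new DNA, was at 7.50, 7.45 and 7.14 in naive cells, 8.26 and 7.77 after MDP, and 8.01 and 8.11 after Pam3CSK4. All 4 pretreated arrays of Uhrf1 were above all 3 naive arrays with this probe set. With its second probe set, MDP before Pam3CSK4 (6.25) was below unstimulated cells (6.31).

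The choice of second ligand can be compared in 3 pairs of arrays that share no array. Pam3CSK4 minus MDP had a median of -0.32 in naive cells, where 42 of 46 genes were below 0, and of -0.49 after MDP pretreatment, where 45 were below 0. After Pam3CSK4 pretreatment it was 0.07, with 11 below 0. For Cdc6 the 3 differences were -1.10 (-0.69 or lower as a bound), -2.23 (through a value barely above the array median) and 0.14. For Ccne2 they were -0.86 (-0.71 or lower), -1.76 and 0.33, for Cdt1 -0.83, -1.39 and 0.21, and for Rrm2 -0.77, -1.25 and 0.19. Across the 46 genes the first 2 sets of differences had a Pearson r of 0.86 and a Spearman rho of 0.77, against 0.83 and 0.54 across all genes. After Pam3CSK4 pretreatment the differences of members spanned only -0.13 to 0.34. They had an r of -0.41 with those in naive cells, against -0.11 across all genes. With those after MDP pretreatment the r was -0.52, against -0.18 across all genes. These are descriptions across genes, which are not independent replicates.

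**Figure D4:**
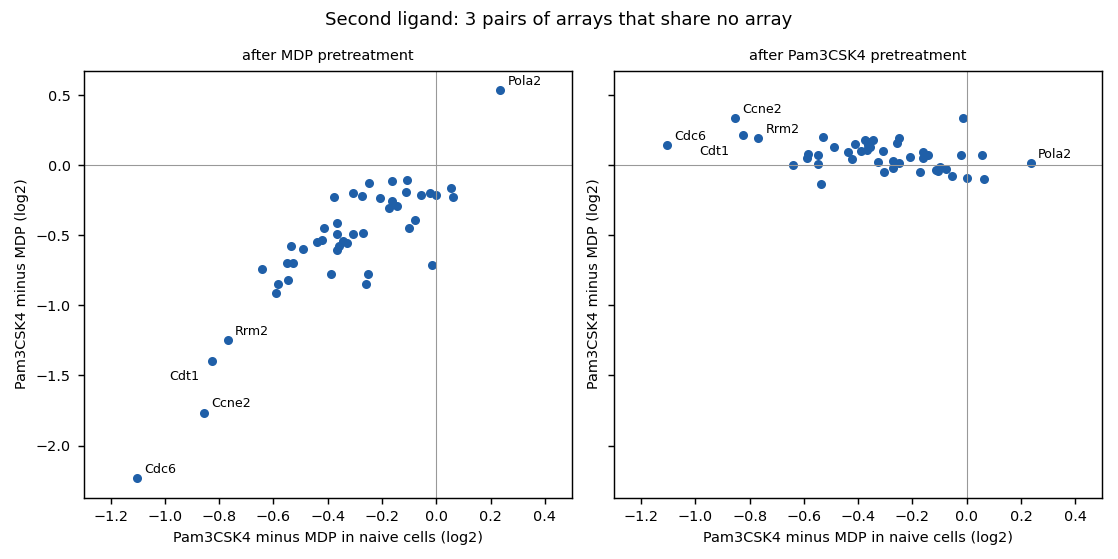
Each point is 1 of the 46 replication genes, with the log2 difference of Pam3CSK4 minus MDP in naive cells on the horizontal axis and the same difference after MDP pretreatment (left) or Pam3CSK4 pretreatment (right) on the vertical axis. On the left 42 of 46 genes are below 0 on both axes, against 6736 of all 18193 genes, and Pola2 is above 0 on both. On the right the points lie between -0.13 and 0.34.

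Other genes of the replication pathway, 58 measured of 63 listed, also had a median below 0 with Pam3CSK4 in naive cells and above 0 in MDP before MDP. Their median difference from unstimulated was -0.31 with Pam3CSK4 in naive cells. As deposited 7 of 58 were at least 2-fold lower there, against 1.95% of all genes. Of these, Hells, Dtl, Dna2 and Dscc1 were below the array median in naive Pam3CSK4 cells. At that bound Dna2 and Dtl fell short of 2-fold, and Dscc1 was below the array median in unstimulated cells too. The list's median difference was 0.12 in MDP before MDP and -0.03 in Pam3CSK4 before Pam3CSK4. At least 2-fold higher there were 0 (0.39% of all genes) and 1, Samhd1 (2.66%). In Pam3CSK4 before Pam3CSK4 Dctd and Top1 were 2-fold lower (2.29% of all genes), Dctd through a value below the array median. The remodeller Hells was at 6.77, 5.67 and 4.96 in naive cells, 7.41 and 5.94 after MDP, and 7.40 and 7.63 after Pam3CSK4. The Cdt1 inhibitor geminin, Gmnn, was at 10.05, 9.48 and 8.29 in naive cells, 10.15 and 8.66 after MDP, and 9.40 and 9.48 after Pam3CSK4. The maintenance methyltransferase Dnmt1 was at 10.28, 9.61 and 8.52 in naive cells and 10.23 and 8.83 after MDP, and Dtl, which helps destroy Cdt1, ranged from 4.95 in naive Pam3CSK4 cells to 7.10 in MDP before MDP. All 4 were lowest with Pam3CSK4 in naive cells, as were Cdc6 and Ccne2.

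Mitosis genes, 29 measured of 30 listed, parted from the replication genes after Pam3CSK4 pretreatment. In naive cells with Pam3CSK4 the mitosis median was -0.28 with 0 at least 2-fold lower, against -0.58 and 3 for the replication genes (1.95% of all genes). In Pam3CSK4-pretreated cells given MDP it was -0.92 with 13 of 29 at least 2-fold lower (2.59% of all genes). Given Pam3CSK4 it was -0.91 with 12 (2.29%). The replication medians there were 0.09 and 0.14, with 0 of 46 in each. In MDP before MDP both lists were higher, at 0.61 and 0.30. Cenpa, the centromeric histone, was at 12.11 in unstimulated and 11.21 in naive Pam3CSK4 cells, and at 8.93 and 8.98 after Pam3CSK4 pretreatment. The mitotic cyclin Ccnb2 was at 10.34 and 9.99, then 7.80 and 7.77, the ubiquitin-conjugating enzyme Ube2c at 10.86 and 10.75, then 9.17 and 9.15, and the anaphase activator Cdc20 at 10.07 and 9.86, then 8.26 and 8.19. Mcm6 on the same 4 arrays was at 10.62, 9.72, 10.52 and 10.58. The difference between the lists was not tested, and the summed neutrophil and stromal markers given above were highest on the same Pam3CSK4-pretreated arrays.

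**Figure D5:**
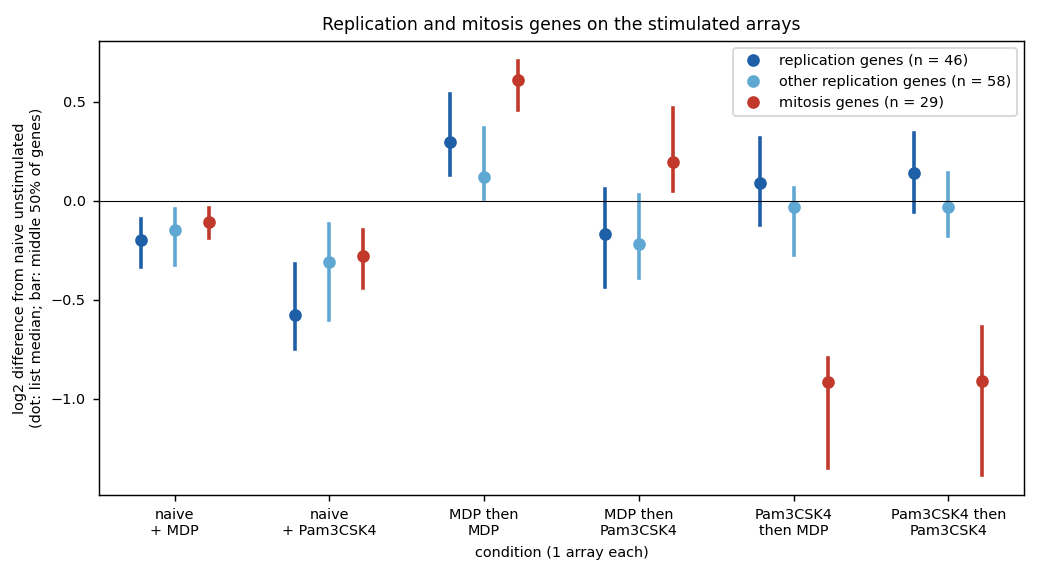
Dots are list medians and bars the middle 50% of genes, as log2 differences from naive unstimulated cells (vertical axis), for replication genes, other replication genes and mitosis genes on 6 arrays (horizontal axis). After Pam3CSK4 pretreatment the mitosis medians lie at -0.92 and -0.91 and the replication medians at 0.09 and 0.14.

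Among 29 regulators of the G1/S step, cyclin D1 was low on the arrays where Cdt1 was low. Ccnd1, which answers to M-CSF, was at 13.19, 12.90 and 11.25 in naive cells, 13.07 and 11.21 after MDP, and 11.91 and 12.17 after Pam3CSK4. Ccnd2 went the other way, at 10.26, 10.56 and 11.34 in naive cells, 10.61 and 11.44 after MDP, and 10.06 and 10.20 after Pam3CSK4. The kinase inhibitor Cdkn1a (p21) was lowest in unstimulated cells, at 11.86, and at 13.14 and 13.32 on the arrays where Cdc6 was lowest. Against unstimulated, naive cells with Pam3CSK4 thus had 1 regulator 2-fold lower, Ccnd1 (-1.94), against 1.95% of all genes. Higher were 2, Cdkn1a (1.27) and Ccnd2 (1.08), against 2.27%.

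Ccnd3 was highest after Pam3CSK4 pretreatment, at 10.92 and 11.00, and lowest in naive Pam3CSK4 cells, at 9.52. Ccna2, the cyclin that takes over in S phase and G2, was instead lowest after Pam3CSK4 pretreatment, at 9.14 and 9.08 against 10.13 in unstimulated cells. Low on those arrays too were Cdk6 (10.38 and 10.40), Myc (8.94 and 8.83) and Cdkn2c (9.41 and 9.51). E2f2 (6.78), E2f6 (7.90) and Skp2 (7.74 there, 7.61 in MDP before Pam3CSK4) were low in naive Pam3CSK4 cells, and E2f8 was highest in MDP before Pam3CSK4 (8.27). Rbl1 (8.76), Lin54 (8.79) and Cdkn1b (9.61) were highest in MDP before MDP, Rb1 was highest in Pam3CSK4 before Pam3CSK4 (10.65), and E2f7 was above the array median on 5 arrays. Ranges were at most 0.61 for Cdk2, Cdk4, Cdc25a, E2f3, E2f4, E2f5, Tfdp1, Rbl2, Cdkn1c, Cdkn2d and Csf1r, the M-CSF receptor, which ran from 14.04 to 14.34. Cdkn2a was below the array median throughout. The 12 measured housekeeping genes had a median of -0.13 against unstimulated on both Pam3CSK4-pretreated arrays and medians nearer 0 on the others.

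Agreement between probe sets of a gene gives a check within an array. Of the 46 genes, 24 had more than 1 probe set above the median on all arrays, 57 in all. For naive Pam3CSK4 against unstimulated all probe sets of a gene pointed the same way in 20 of 24 genes, for second against first MDP exposure in 20, and for second against first Pam3CSK4 exposure in 22, with median spreads within a gene of 0.21, 0.20 and 0.17. For Pam3CSK4-pretreated cells against unstimulated, where the medians were near 0, they pointed the same way in 16 and 15. Genes with exactly equal values on at least 2 arrays numbered 8 of 46 (17.4%), against 42.5% of all genes.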

How the data were processed

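Expression was measured on 7 Affymetrix arrays, all labelled as replicate 2 of their condition, and other replicates are not analysed here. The deposited values are log2 expression per probe set, which the authors computed by RMA (affy), per the submitters' processing notes. Versions and the set of arrays normalized together are not given in the sources used here. RMA pulls low values together, so differences of dim genes are understated. The table held 45101 probe sets, of which 34945 had 1 gene symbol in the platform annotation, and each of 18193 genes was taken from its brightest probe set.

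Differences between pairs of arrays were computed in 10 comparisons with Python 3.11.15, numpy 2.4.6 and pandas 2.3.3, and called at 2-fold. The calculation was tested on simulated data. Cyclic loess used limma 3.58.1 in R 4.3.3, and the other alternatives are given in the closing section. The members and lists were chosen with earlier results of these data known. Values on all arrays are printed for the 20 members with the largest range and any member past 2-fold. The 4 genes with the largest range of each other replication, mitosis and regulator list are named, as is every G1/S regulator. A few members beyond the rule (Pcna, Pola2) are printed in full and were chosen after their values were seen.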

Additional observations from a re-analysis of the deposited data

Results flagged for a closer look

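Several differences changed sign between naive and pretreated cells, and none of these changes was tested, since each condition has 1 array. The median replication gene differed between Pam3CSK4 and MDP by -0.32 in naive cells and by 0.073 in Pam3CSK4-pretreated cells. Against unstimulated cells the median was -0.20 with MDP in naive cells, 0.30 with MDP after MDP and 0.088 with MDP after Pam3CSK4. It was -0.58 with Pam3CSK4 in naive cells and 0.14 with Pam3CSK4 after Pam3CSK4.

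Cdc6 was at -0.88 from unstimulated with MDP in naive cells and at 0.61 with MDP after MDP. For Ccne2 these values were -0.91 and 0.62, and with Pam3CSK4 in naive cells and after Pam3CSK4 they were -1.77 as deposited (-1.62 or lower as a bound) and 0.65. In the same Pam3CSK4 comparisons Rrm2 was at -1.00 and 0.67, Ccne1 at -0.71 and 0.61, and Chaf1b at -0.61 and 0.60.

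The control probe sets for 18S ribosomal RNA, which no comparison uses, stood 1.70 above unstimulated on the Pam3CSK4 before Pam3CSK4 array. The replication gene medians of that array and of Pam3CSK4 before MDP, where the control probe sets stood at 0.48, were 0.14 and 0.09.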

How the results depend on the processing

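Scaling, probe set choice, treatment of low values and the fold threshold were varied 1 at a time. Of 70 recomputed median differences 68 moved by less than the robust SD of the closest pair of arrays, and the median kept its sign in all 70, though with housekeeping centring those of Pam3CSK4-pretreated against unstimulated cells were 0.20 and 0.25. The exceptions were naive Pam3CSK4 against unstimulated, at -0.45 with 32 added to the linear values, and MDP before MDP against naive MDP, at 0.47 with probe sets of a gene averaged. With arrays centred on their medians 5 genes were 2-fold lower in naive Pam3CSK4 cells. Genes 2-fold higher in MDP before MDP against naive MDP numbered 2 under cyclic loess and 2 with 32 added. In Pam3CSK4 before MDP against naive MDP they numbered 2 without less specific probe sets and 0 with 32 added, and in Pam3CSK4 before Pam3CSK4 against naive Pam3CSK4 4 with 32 added. At 1.5-fold the lower genes against unstimulated numbered 4 with MDP and 23 with Pam3CSK4 in naive cells, 6 in MDP before Pam3CSK4, and 1 in each Pam3CSK4-pretreated array, and the higher genes 10 in MDP before MDP, 2 in MDP before Pam3CSK4, 3 in Pam3CSK4 before MDP and 9 in Pam3CSK4 before Pam3CSK4. Against naive cells given the same ligand the higher genes numbered 23 and 10 after MDP and 9 and 30 after Pam3CSK4. At 3-fold, 2 genes were lower with Pam3CSK4 in naive cells (1 of them only as deposited) and 1 in MDP before Pam3CSK4 against unstimulated, and 0, 0 and 3 were higher in MDP before MDP, Pam3CSK4 before MDP and Pam3CSK4 before Pam3CSK4 against their naive counterparts. Of 129 recomputed differences of single genes past 2-fold, 110 stayed past it and 19 fell short in the same direction. Where no construction shows the cause of a change, the cause was not tested. No paired analysis was possible because every label carries the same replicate number and each condition has 1 array, and no replicate could be left out. Signal limits Tyms and Ung, and the lowest values of Cdc6 and Ccne2.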
